A study of Mus musculus with 4 samples.

Results

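Map1b encodes microtubule-associated protein 1B, a large protein of growing axons and dendrites. RNA fragments of it that came down with AGO2 were followed in newborn C57BL/6 mice (postnatal day 0), from the whole brain. The gene was selected on its number of AGO2 clusters in these files, as a known FMRP-bound mRNA with many of them, so its cluster numbers and levels are a description. Its members are the regions whose midpoint lies in Map1b (ENSMUSG00000052727.6, chr13:99421446-99516540, minus strand, mm10, GENCODE vM21) on the same strand. They number 59 of 86106 clusters in the AGO2 immunoprecipitate (IP) of Fmr1 ko brain and 56 of 46860 in the IP of wild-type brain. A table of the whole series compares both IPs over 46862 regions, of which 56 are in Map1b, at the positions of the wild-type clusters. The series holds 1 IP and 1 input library per genotype, made with anti-AGO2 antibody EAG009. Inputs are seen through the IP scores alone. The labels give neither the allele of the Fmr1 ko mice, nor their sex, nor whether brains were pooled, and Fmr1 reads do not check the genotype, so the library is called the knockout-labelled one. With 1 IP per genotype no difference has a replicate check. Each compares libraries and not genotypes, and fewer cells with Map1b cannot be told apart from less bound RNA per cell.

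AGO2 is the Argonaute protein that carries miRNAs to target mRNAs. It pairs mainly through the seed, bases 2 to 8 of the miRNA, and usually acts in the 3′ UTR. FMRP, the product of Fmr1, binds brain mRNAs largely along their coding sequence and represses their translation, and Map1b is among its best-known targets. MAP1B protein binds and stabilises microtubules during axon outgrowth. In mouse cortical neurons miR-9 is known to repress Map1b and to alter axon growth and branching.

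The 3′ UTR site that stood highest over input in both libraries spans chr13:99424780-99424910. It is shown first because it carries seed matches of 4 miRNA families. The windows below run 5′ to 3′ on the transcript strand (GRCm38.p6, the mm10 assembly), with the bases that match the seed in capitals.
miR-9 site, chr13:99424892-99424898: ctgaagcaaatACCAAAGcaggtgggagta
miR-26 site, chr13:99424843-99424849: cttaggaagtgACTTGAAtgtacaaagaca
miR-181 site, chr13:99424839-99424846: aggaagtgactTGAATGTAcaaagacacct
miR-23 site, chr13:99424805-99424811: acttattttttAATGTGAgacagcaagttt

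The matching mature miRNAs, from RefSeq on GRCm38.p6, have their seeds in capitals.
mmu-miR-9-5p: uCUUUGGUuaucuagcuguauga
mmu-miR-26a-5p: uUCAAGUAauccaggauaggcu
mmu-miR-181a-5p: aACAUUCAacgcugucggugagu
mmu-miR-23a-3p: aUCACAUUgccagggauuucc

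The miR-181 match is an 8mer, with an A opposite the first base of the miRNA. The miR-9 and miR-23 matches are 7mers to bases 2 to 8, and the miR-26 match is a 7mer to bases 2 to 7 with that A. The miR-26 and miR-181 matches overlap by 4 bases. The miR-9, miR-26 and miR-181 matches lay inside clusters of both libraries. The miR-23 match lay inside the wild-type cluster and in the gap between a pair of knockout-labelled ones, chr13:99424816-99424858 and chr13:99424740-99424795.

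Reads at this site stood over input in both IPs. At chr13:99424884-99424901, over the miR-9 match, the knockout-labelled IP had 23 reads against 2 in its input, a log2 of 4.46 (interval 2.45 to 7.59). At chr13:99424816-99424858, over the miR-26 and miR-181 matches, it had 34 against 4 (log2 4.03, interval 2.54 to 5.98). The wild-type clusters were wider. Over the miR-9 match, chr13:99424871-99424910 held 29 IP reads against 8 input reads in wild type (log2 4.52, interval 3.36 to 5.86). The abutting chr13:99424780-99424870 held 51 against 12 (log2 4.75), and its -log10 p of 52.7 was the highest of any Map1b cluster in either IP. All intervals are exact 95% binomial intervals of recovered reads, cover counting error only, and treat abutting clusters as independent though they may share reads. A read count in a denominator may stand for 0, because 0 was counted as 1.

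Set directly against each other, the IPs differed at this site toward wild type. In the authors' deposited table, whose log2 is wild type over knockout-labelled, so that a positive value is higher in wild type, the log2 was 1.40 at chr13:99424871-99424910 and 0.98 at chr13:99424780-99424870. The reads behind them were 25 and 59 in the knockout-labelled IP, and 29 and 51 in the wild-type IP, which was the shallower of the pair. Their intervals (0.58 to 2.23, and 0.41 to 1.54) lay above 0. To be called, a region needed a log2 of at least 1 in either direction together with a 2-sided -log10 p, from the recovered reads, of at least 3. The miR-9 region passed, with a -log10 p of 3.42, and the abutting one reached 3.35 but fell short in log2. Of all regions with reads, 3.35% were higher in wild type by this rule and 0.174% were lower. Of 3′ UTR regions with 20 or more reads, 126 of 920 (13.7%) were higher, and 1 of 8 in Map1b, a share near the background.

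The rest of the 3′ UTR carried weaker signal. The transcript with the longest coding sequence has 7 exons, 7392 coding bases in 2464 codons, and 4363 bases of 3′ UTR with the stop codon. Clusters covered 17.6% of that 3′ UTR in the knockout-labelled IP and 14.3% in the wild-type IP. Besides the main site, chr13:99422879-99422951 was enriched over input in the knockout-labelled IP (30 reads against 6, log2 3.26). It overlaps chr13:99422844-99422889 of the wild-type IP, which was also enriched (7 against 3, log2 3.89). A further 3′ UTR cluster enriched in the wild-type IP lay at chr13:99423360-99423417 (7 against 2, log2 4.47), where the knockout-labelled IP had no overlapping cluster. The neighbouring knockout-labelled clusters, chr13:99423322-99423352 and chr13:99423437-99423463, held 10 reads against 6 and 12 against 4 and did not pass the limits.

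A cluster is called enriched where both scores the authors gave it against input, -log10 p and log2, are at least 3. By that rule 4 of 59 knockout-labelled Map1b clusters (6.78%) and 8 of 56 wild-type clusters (14.3%) were enriched. The share over all clusters was 3.08% in the knockout-labelled IP and 24.1% in the wild-type IP. When the input of wild type was thinned to the other pair's ratio, 3 wild-type clusters were enriched, fewer than the 4 of the knockout-labelled IP. In the 3′ UTR, 3 of 14 clusters were enriched in the knockout-labelled IP and 4 of 10 in the wild-type IP, beside 8.98% and 37.1% of all 3′ UTR clusters. In coding sequence, 1 of 44 and 2 of 34 were, beside 1.65% and 21.2% of all coding clusters. The limits asked more reads of the knockout-labelled IP, where the input to IP depth ratio was 1.92, against 6.34 in wild type.

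**Figure D1:**
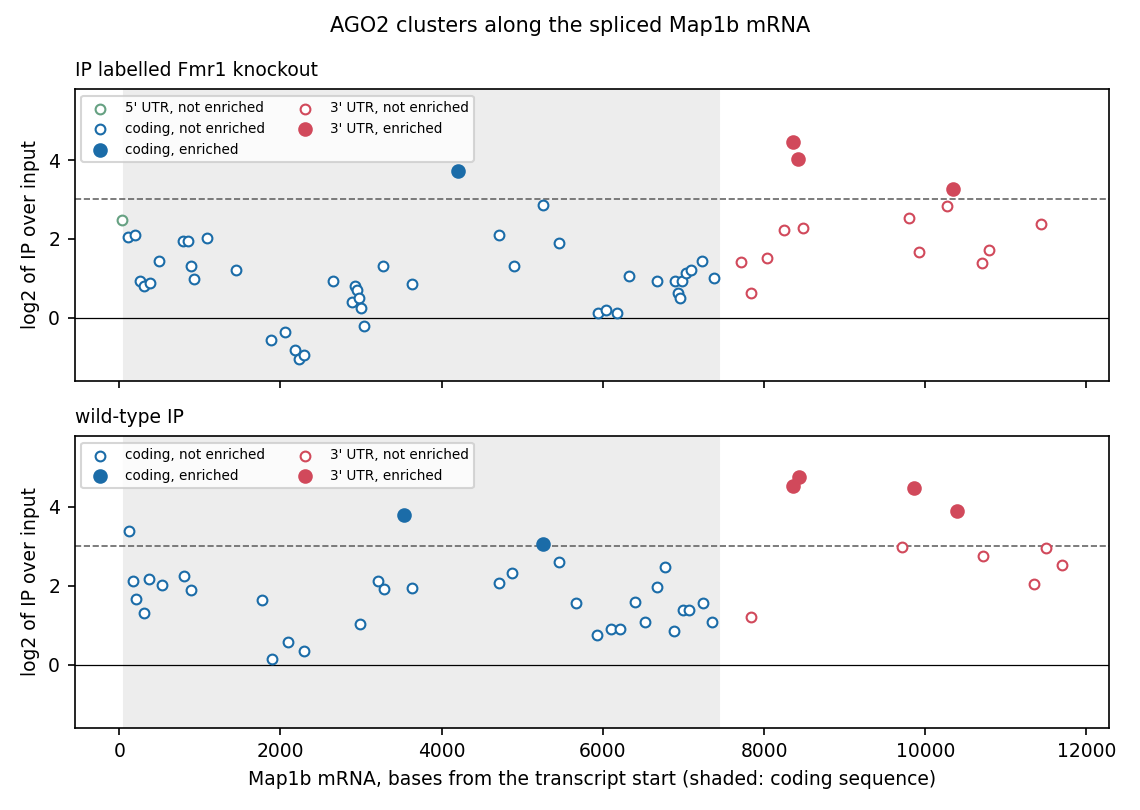
AGO2 clusters along the spliced Map1b mRNA, with the log2 of IP over input on the vertical axis and bases from the transcript start on the horizontal axis; the upper panel is the IP labelled Fmr1 knockout and the lower panel the wild-type IP. Filled points are enriched, the dashed line marks a log2 of 3, and intron clusters and those of another transcript's 5′ UTR are not drawn. The 3′ UTR points of the main site reach 4.46 in the upper panel and 4.75 in the lower one, and 6 coding clusters of the knockout-labelled IP lie below 0.

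Seed matches were also counted along the 3′ UTR as a whole. For 24 of 25 miRNA families listed for neonatal brain the mature sequence could be read, and miR-124 was not searched. The 3′ UTR held 11 matches of 9 families, of which 4 lay inside a knockout-labelled cluster, 5 inside a wild-type cluster and 3 inside clusters of both. Outside the main site, a miR-135 match lay in the knockout-labelled cluster chr13:99425529-99425542 (18 reads against 13, log2 1.41). An 8mer of miR-138 (chr13:99425283-99425290) and 7mers of miR-27 (chr13:99423544-99423550), miR-7 (chr13:99423186-99423192), miR-135 (chr13:99423108-99423114) and miR-181 (chr13:99422384-99422390) lay whole in no cluster. The miR-27 match overlapped the edge of the wild-type cluster chr13:99423533-99423548 in part.
miR-135 site, chr13:99425535-99425541: tgaacattcggAAGCCATgcactcacgcac

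The miR-135 window is printed as the match found in a knockout-labelled cluster alone. Over all 3′ UTR clusters of the knockout-labelled IP 25.8% held a match of some family, beside 3 of 14 for Map1b. In the wild-type IP the share was 25.2%, beside 3 of 10. A match describes the letters only and is no evidence of which miRNA was bound.

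Most AGO2 reads of Map1b lay in coding sequence. Of its clusters, 44 of 59 in the knockout-labelled IP (74.6%, interval 61.6 to 85.0) and 34 of 56 in the wild-type IP (60.7%, 46.8 to 73.5) were coding, beside 36.8% and 29.8% of all clusters. The 3′ UTR held 14 and 10. Introns held 0 clusters in the knockout-labelled IP, which allows a share of up to 6.06%, and 10 in the wild-type IP, although intron clusters made up 42.8% and 44.1% of all clusters. Densities were taken over all 6 transcripts, with 7443 coding, 6312 3′ UTR and 79249 intron bases. Per kilobase, coding sequence had 5.91 clusters in the knockout-labelled IP and 4.57 in the wild-type IP, the 3′ UTR 2.22 and 1.58, and introns 0 and 0.126. All 14 and 10 3′ UTR clusters lay in the 4363 bases of the transcript with the longest coding sequence. On that length the 3′ UTR density is higher, and the gap to coding sequence smaller.

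On the regions called in wild type, coding sequence took 92.9% of the Map1b reads of the knockout-labelled IP, 83.3% of those of the wild-type IP and 94.4% of those of the wild-type input. The 3′ UTR took 6.74%, 13.4% and 4.93%. These regions were called through the wild-type IP. On its own clusters the knockout-labelled IP had 8.30% of its recovered Map1b reads in the 3′ UTR, without the 6 coding clusters that gave no reads.

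Among protein-coding genes Map1b carried the most coding AGO2 reads of either IP. Recovered coding reads came to 4342 in the knockout-labelled IP, followed by Pclo with 2681, and to 1079 in the wild-type IP, followed by Pcdh1 with 602. Pclo encodes a presynaptic scaffold and Pcdh1 a protocadherin. By all reads on the regions of the deposited comparison, Map1b came after Igf2 in the knockout-labelled IP (4451 reads) and after Igf2 and Egfl7 in the wild-type IP (1295 reads). By number of clusters it ranked lower, at 150 of 9444 genes in the knockout-labelled IP and 52 of 7981 in the wild-type IP. By coding clusters it ranked 26 and 7, and by 3′ UTR clusters 10 and 28. Reads here mark RNA abundance as well as AGO2 binding, and the input reads of the same clusters were 4301 and 3101.

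Coding clusters stood less far above input than those of the 3′ UTR. The median log2 over input of coding clusters was 0.94 in the knockout-labelled IP and 1.65 in the wild-type IP, beside 1.35 and 3.25 over all coding clusters. In the 3′ UTR the Map1b medians were 2.25 and 2.97, beside 2.52 and 4.25. The deposited log2 is scaled to depth, so a cluster with equal IP and input reads in both pairs takes a log2 that is 1.72 lower in the knockout-labelled pair. Input reads were counted as at least 1, so the log2 of clusters with few reads also depends on depth. Over all coding clusters the median was 4 IP reads in either library, so those medians are not compared between libraries. Map1b coding clusters that gave reads had medians of 111 and 24.5 IP reads. The 10 intron clusters of the wild-type IP had a median of 4.25, but each rested on 3 to 5 IP reads. The abutting intron clusters chr13:99478287-99478335 and chr13:99478272-99478286 were enriched with 5 reads against 1 each.

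Enriched coding clusters differed between the IPs. The knockout-labelled IP had one at chr13:99432044-99432075 in exon 5 (62 reads against 9, log2 3.72, interval 2.71 to 4.92), with no wild-type cluster over it. The wild-type IP had one at chr13:99432713-99432750 in the same exon (35 against 16, log2 3.79), with no overlapping knockout-labelled cluster. At chr13:99430991-99431032 the wild-type cluster was enriched (25 against 19, log2 3.06). There the knockout-labelled cluster chr13:99430975-99431043 fell short in log2, with 118 reads against 31 and a log2 of 2.87. The central 30 bases of the 3 enriched coding clusters are printed because their sequence holds no seed match of the families searched; capitals mark TGGA, one of the GGA-containing motifs described for FMRP-bound RNA.
knockout-labelled, chr13:99432045-99432074: cctgactcagagtctcctgTGGAgaaggtt
wild type, chr13:99432717-99432746: ttcgtaaacattaccaaatatgagtcctcg
wild type, chr13:99430997-99431026: cttcagctcacaccccttctcagatagcct

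Elsewhere in the coding sequence, seed matches lay in 6 of 44 knockout-labelled clusters and 3 of 34 wild-type clusters (13.6% and 8.82%), beside 19.6% and 18.3% of all coding clusters. A let-7 match was inside clusters of both IPs, with 116 reads against 60 in the knockout-labelled IP (chr13:99430775-99430843, log2 1.89) and 30 against 31 in the wild-type IP (chr13:99430777-99430832, log2 2.62).
let-7 site, chr13:99430810-99430816: cttttcagattCTACCTCtgcagctaaaga
mmu-let-7b-5p: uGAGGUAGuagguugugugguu

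This pair is shown as the coding match with the highest log2 over input among those inside clusters of both libraries. Sequence features linked to FMRP were also counted on the transcript strand. The 4 letters AGGA or TGGA occurred in 31 of 44 knockout-labelled and 20 of 34 wild-type coding clusters (70.5% and 58.8%), beside 46.7% and 36.3% of all coding clusters, and GGAC in 29.5% and 29.4%, beside 21.9% and 15.5%. Coding clusters of Map1b were longer, with median widths of 66 and 55 bases beside 50 and 36, and a longer cluster has more room for any motif. No predicted G-quadruplex of 4 runs of at least 3 guanines was found in the 11808 bases of the transcript, beside 0.205% and 0.143% of all coding clusters that held one.

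The large exon 5, with 6490 bases, holds 87.8% of the coding sequence. It held 35 of 44 coding clusters in the knockout-labelled IP and 25 of 34 in the wild-type IP. Within it, the most wild-type input reads lay on chr13:99433911-99434044 (106 IP against 526 input reads, log2 0.35) and chr13:99434065-99434280 (101 against 432, log2 0.57). The next cluster, chr13:99434346-99434391, had 30 against 172 (log2 0.14). The 5 knockout-labelled clusters that overlap these 3 lay below their input, with log2 values between -1.04 and -0.37. In 5 equal bins of the coding sequence, from the start codon, the log2 of summed reads over input was 1.53, 0.60, 1.34, 1.31 and 0.76 in the knockout-labelled IP and 1.97, 0.62, 2.27, 1.74 and 1.27 in the wild-type IP. The bin with these clusters was lowest in both, although its 5 knockout-labelled clusters below input gave no reads and are not in the sum.

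The comparison of the IPs asks whether AGO2 reads on Map1b differ between Fmr1 ko and wild-type brain. On the 34 coding regions called in wild type, the knockout-labelled IP had 4134 reads and the wild-type IP 1079. Depth differed 2.28 times between the IPs, and scaled to wild-type depth the 4134 reads come to 1814. These regions had a median log2 of -0.82 in the authors' deposited table (quartiles -1.34 and -0.51), and 31 of 34 lay below 0, that is, lower in wild type. All coding regions with 20 or more reads of both IPs together, which every Map1b coding region had, had a median of 0.08 by the authors' deposited table, and 48.1% of those 1347 regions lay below 0.

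Counting intervals lay below 0 for 23 Map1b coding regions, above 0 for 1 and across it for 10. As lower in wild type, 6 of 34 passed the call, 17.6% beside 0.174% of all regions. Of all 1347 coding regions with 20 or more reads, which all Map1b coding regions had, 17 (1.26%) were called lower, the 6 of Map1b among them. Neither share is matched for depth, and a region with more reads passes the call more easily. In classes of wild-type log2 over input, Map1b coding regions had median reads of 83 to 161. Those of other genes with 20 or more reads had 27 to 28. Of the 6 Map1b regions called lower, the most reads lay at chr13:99435311-99435435, with 293 reads in the knockout-labelled IP and 56 in the wild-type IP (log2 -1.20 in the authors' deposited table). The adjacent chr13:99435436-99435494 had 176 and 24 (-1.69 in the authors' deposited table). The other 4 called regions were chr13:99431536-99431565 (94 and 14 reads, log2 -1.56 in the authors' deposited table), chr13:99429361-99429397 (113 and 17, -1.54), chr13:99427421-99427460 (104 and 16, -1.51) and chr13:99427232-99427313 (131 and 22, -1.39).

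Exons outside exon 5 lay lower still. In exon 1 the knockout-labelled IP had 49, 60 and 53 reads on 3 regions and the wild-type IP 5, 9 and 11. The log2 values of these regions in the authors' deposited table were -2.10, -1.55 and -1.08, with every interval below 0. The 9 coding regions outside exon 5 had a median of -1.51 in the authors' deposited table, and the 25 in exon 5 had -0.74. The region of exon 3, at -0.69 (interval -1.74 to 0.26), did not lie below the exon 5 median. In the same 5 bins, the log2 of summed reads was -1.37, -0.33, -0.45, -0.75 and -0.94 from the start codon on. The first bin was lowest, and leaving it out gave a median of -0.74 over 26 regions, 23 of them below 0.

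The 3 coding regions above 0 stood apart. The enriched wild-type cluster chr13:99432713-99432750 had 48 reads in the knockout-labelled IP and 35 in the wild-type IP (log2 0.73 in the authors' deposited table, interval 0.06 to 1.39). Those at chr13:99434460-99434528 (70 and 39 reads, 0.34 in the authors' deposited table) and chr13:99430577-99430628 (50 and 24, 0.13) had intervals across 0.

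**Figure D2:**
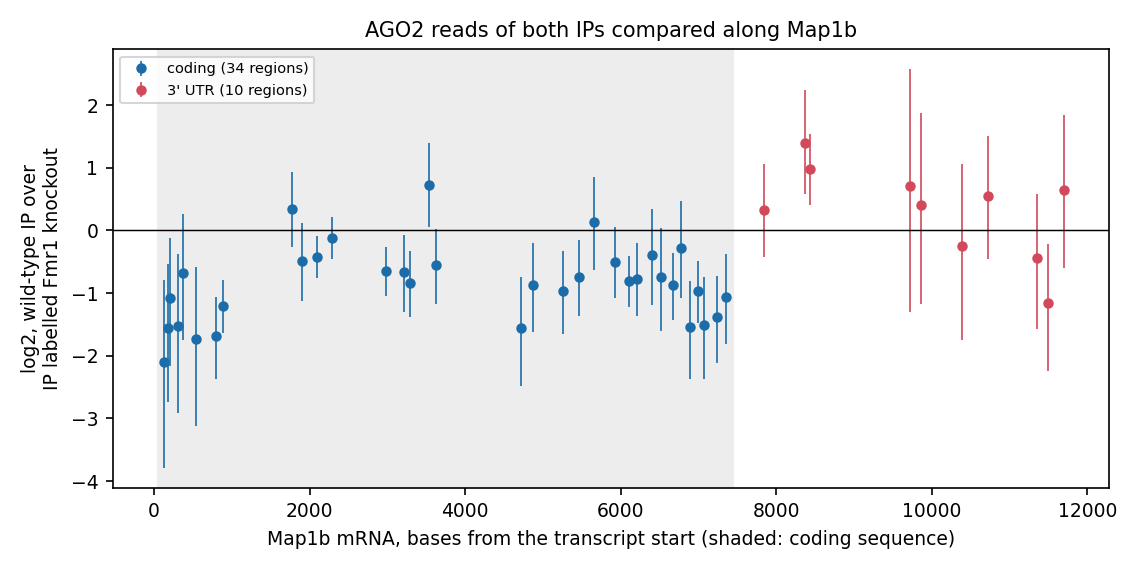
The log2 of the wild-type IP over the IP labelled Fmr1 knockout for the 34 coding and 10 3′ UTR regions of the deposited comparison, along the spliced mRNA in bases from the transcript start. Points are deposited values and bars exact 95% binomial intervals of the recovered reads. Of the coding points 31 lie below 0, and the 3′ UTR points of the main site lie at 1.40 and 0.98.

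The 10 regions of the 3′ UTR had a median log2 of 0.48 in the authors' deposited table, and it was 0.44 over the 8 with 20 or more reads. All 3′ UTR regions with 20 or more reads gave 0.77 in the authors' deposited table. Summed, the 10 regions had 300 reads in the knockout-labelled IP and 174 in the wild-type IP. The 2 intervals above 0 were those of the main site, and 1 was below 0, at chr13:99421712-99421797 (56 and 11 reads, log2 -1.16 in the authors' deposited table). The remaining 7 intervals crossed 0.

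Intron regions had a median of 2.77 in the authors' deposited table, the median of all regions as well. They rested on 1 to 2 reads in the knockout-labelled IP and 3 to 5 in the wild-type IP, and all 10 intervals crossed 0, so a difference was not detectable at this depth.

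**Figure D3:**
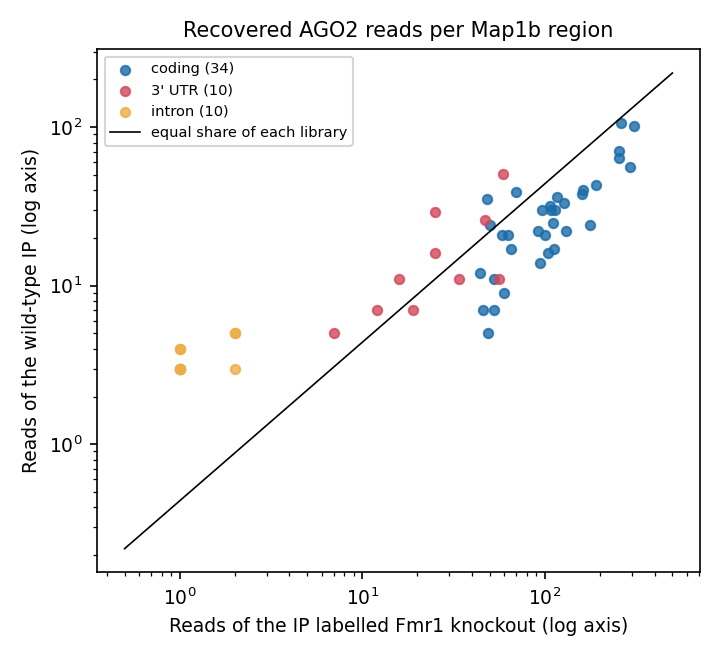
Recovered reads of the IP labelled Fmr1 knockout (horizontal) and of the wild-type IP (vertical) on each of 34 coding, 10 3′ UTR and 10 intron regions, both on log axes; a knockout-labelled read count of 1 may stand for 0. The line marks equal shares of the libraries, which differ 2.28 times in depth. Of the coding points 31 lie under the line, and 7 of 10 3′ UTR points lie above it.

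The inputs differed as well. In 24 pairs of overlapping coding clusters with reads in all 4 libraries, Map1b input reads per base, scaled to depth, were higher in the knockout-labelled input by a median log2 of 1.06 (quartiles 0.71 and 1.71), in 23 of 24 pairs. These pairs hold 21 knockout-labelled clusters, 3 of them in more than 1 pair. All 4128 such coding pairs of the series gave 0.56. With 10 or more wild-type input reads, the input difference was 1.04 over 23 Map1b pairs and 0.56 over 640 coding pairs of all genes. Where the overlap also reached 0.5 of the longer cluster, it was 1.11 over 12 Map1b pairs and 0.78 over 327 of all genes. IP reads per base of the 24 Map1b pairs were higher in the knockout-labelled IP by a median log2 of 0.64. With 10 or more wild-type input reads, this IP difference was 0.58 over 23 Map1b pairs and -0.20 over 640 coding pairs of all genes. In 7 wild-type 3′ UTR clusters paired in this way, of which 2 share 1 knockout-labelled cluster, the input difference was 0.10 and the IP difference 0.25, beside 0.47 and -1.14 over all 3′ UTR pairs. With 10 or more wild-type input reads the IP difference was -0.06 over 4 Map1b pairs and -0.46 over 83 3′ UTR pairs of all genes. Clusters below input gave no reads, so 4 coding pairs are missing. The part of the input in the coding difference of the IPs was not tested, and Map1b RNA level was not measured apart from these libraries.

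The deposited log2 over input, knockout-labelled minus wild-type, had a median of -0.61 over 28 Map1b coding pairs and of -1.67 over all 5311 coding pairs, where equal reads give -1.72. With 10 or more wild-type input reads it was -0.61 for 27 Map1b pairs and -1.19 for all 1160.

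**Figure D4:**
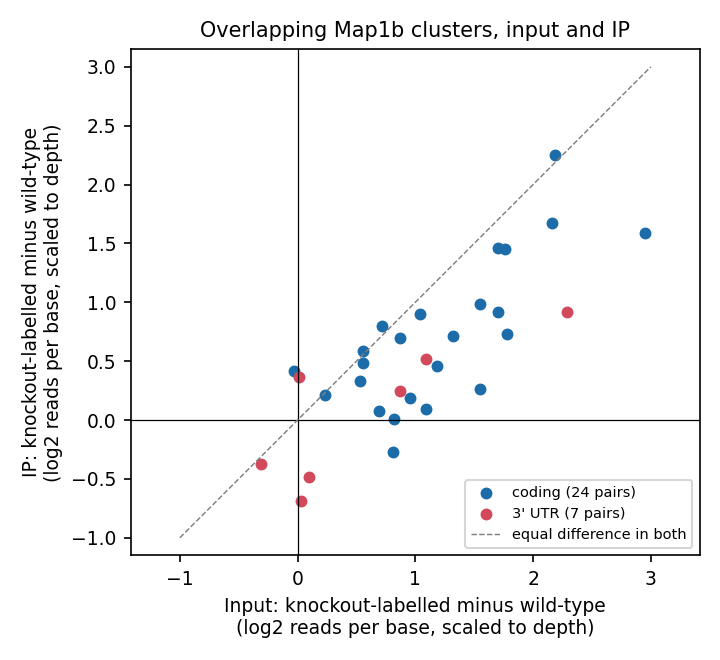
Differences in log2 reads per base between libraries, knockout-labelled minus wild-type and scaled to depth, for overlapping Map1b clusters (24 coding pairs and 7 3′ UTR pairs), with the inputs on the horizontal axis and the IPs on the vertical axis. Of the coding pairs 23 lie right of 0, at a median of 1.06 for the inputs and 0.64 for the IPs. The dashed line marks an equal difference in both.

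Map1b was also set beside other genes at like signal over input, in classes of wild-type log2 over input chosen after the data had been seen. Wild-type IP reads are the numerator of both values, so a rise from class to class is built in and is not read here. Of coding regions with 20 or more reads, those below 1 had a median of -0.50 by the authors' deposited table in Map1b (7 regions) and -0.59 in other genes (165). From 1 to 2 the authors' deposited table gave -0.88 (15 regions) and -0.32 (298), and from 2 to 3 it gave -0.88 (9) and -0.07 (273). At 3 or more its medians were -0.96 for 3 Map1b regions and 0.66 for 577 of other genes.

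Coding clusters of Map1b were often called in both IPs. Of knockout-labelled clusters, 37 of 44 coding (84.1%, interval 69.9 to 93.4) and 7 of 14 3′ UTR clusters overlapped a wild-type cluster. Of wild-type clusters, 28 of 34 coding (82.4%, 65.5 to 93.2), 7 of 10 3′ UTR and 0 of 10 intron clusters overlapped a knockout-labelled one. Over all coding clusters the shares were 15.5% and 38.0%. Over all 3′ UTR clusters they were 24.8% and 32.7%, and over all wild-type intron clusters 11.7%. The 0 of 10 intron clusters in Map1b allows a share of up to 30.8%. With 20 or more IP reads and all kinds of sequence together, 78.7% of knockout-labelled and 81.5% of wild-type Map1b clusters were shared, beside 80.8% and 97.9% of all such clusters. Of coding clusters with 20 or more IP reads, 31 of 38 (81.6%) and 19 of 24 (79.2%) in Map1b were shared. Over all genes 70.6% and 96.1% of such coding clusters were. The knockout-labelled IP had a cluster over the transcript start, chr13:99516472-99516551 (55 reads against 19, log2 2.47), which the wild-type IP lacked.

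The genes most like Map1b were sought over 4 values, the median log2 over input of coding and 3′ UTR clusters in each IP, among 257 protein-coding genes with at least 3 clusters in each. They were Map2 (Euclidean distance 0.60), Nav1 (0.68), Chl1 (0.71), Ccdc88a (0.83) and Crmp1 (0.84). Map2 encodes a dendritic microtubule-associated protein, Nav1 a microtubule-associated navigator protein, Chl1 a cell adhesion molecule, Ccdc88a the actin-binding protein girdin and Crmp1 a collapsin response mediator. Map2 had a coding median of 0.94 in the knockout-labelled IP and 2.00 in the wild-type IP, and 3′ UTR medians of 2.75 and 2.99. Its 20 coding regions with 20 or more reads had a median log2 of -0.15 in the authors' deposited table, against -0.82 for Map1b.

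Map1b lay lowest among microtubule genes in coding sequence. Of 38 microtubule genes, 36 had exonic regions, 6 had a region called higher in wild type and 2 a region called lower. Over 23 of them with coding regions of 20 or more reads, the authors' deposited table gave a median of 0.10, and 0 lay below Map1b. Dst and Macf1, which encode cytoskeletal linkers, had coding medians of -0.04 and -0.59 in the authors' deposited table, Map2 had -0.15, and Apc, a tumour suppressor that binds microtubule ends, had -0.57.

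Among 32 genes listed as FMRP-bound, 30 had exonic regions, 6 had a region called higher and 3 a region called lower. The coding median over 16 of them was -0.28 in the authors' deposited table, and 4 of the 16 lay below Map1b. Pclo had -0.88 over 31 regions, the ankyrin gene Ank3 -0.74, the ankyrin gene Ank2 -0.40 and Kif1a, a kinesin of axonal transport, -0.29 in the authors' deposited table. Over 607 protein-coding genes with such coding regions the authors' deposited table gave a median of 0.36, 40 lay below Map1b, and 548 and 24 of 6698 genes had a region called higher and lower. Among 56 genes with 5 or more such coding regions, Map1b ranked 6 from the lowest, after Ankrd11, Nova2, Nav2, Sptan1 and Pclo, which are named because they lay lower.

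**Figure D5:**
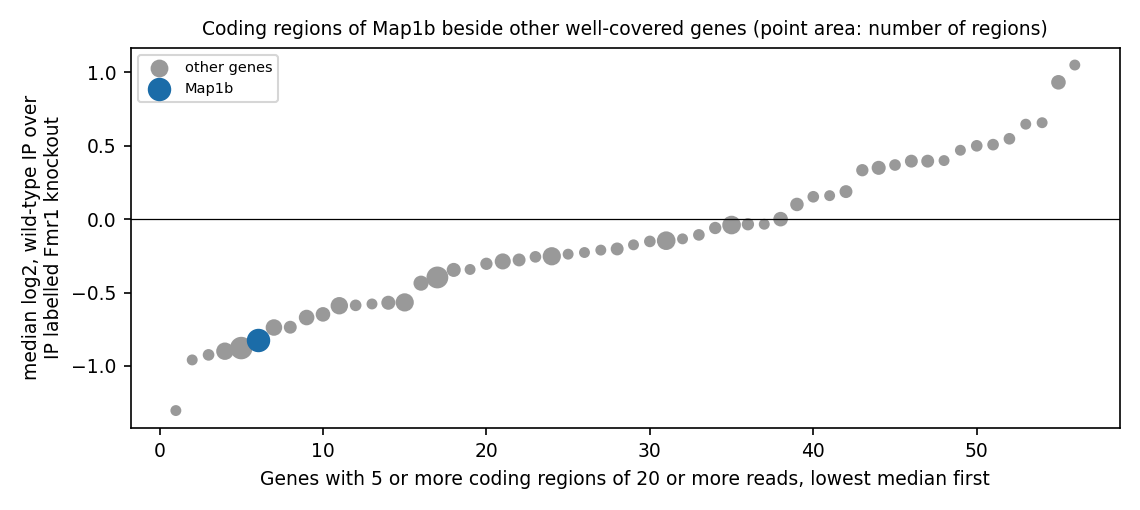
Median log2 of the wild-type IP over the IP labelled Fmr1 knockout over coding regions with 20 or more reads, for 56 protein-coding genes with at least 5 such regions, ordered from the lowest; point area grows with the number of regions. Map1b is at -0.82 with 34 regions, and 5 genes lie lower.

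The labelled tissue was checked by clusters on marker genes. All 6 neuron markers and all 5 neural progenitor markers had clusters in both IPs. The knockout-labelled and wild-type IPs had 266 and 149 clusters on the neuron markers, and 31 and 14 on the progenitor markers. Markers of other cells also had fewer than the neuron markers, with 31 and 9 clusters on 4 astrocyte markers and 15 and 9 on 4 oligodendrocyte lineage markers. The 3 endothelial markers had 7 and 2, the 3 microglial ones 2 and 1 and the 3 erythroid ones 2 and 3. The part of cell makeup in the Map1b differences was not tested. Of 4 genes not of brain, 0 had clusters in both, and they held 9 clusters in the knockout-labelled IP and 1 in the wild-type IP.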

How the data were processed

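AGO2 eCLIP libraries of P0 brain were analysed from the processed files of 2 IPs and 1 table of the series. Per the labels' protocols and the submitters' processing notes, adapters were trimmed with Cutadapt 1.15, repeat reads were removed, the rest was mapped to mm10 with STAR 2.6.0c, duplicates were removed with UMI tools, and clusters were called with CLIPper 1.4. The deposited -log10 p (at most 400) and the deposited log2 compare each cluster with its input, or, in the series table, the wild-type IP with the knockout-labelled IP. The making of the series table is not given in the sources used here. Of its 46862 regions 46799 are those of the wild-type file.

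Reads were recovered from the authors' log2, which less a library constant is the log2 of 1 whole number over another of at most 1000, and from -log10 p, met within 1% by a binomial or, with at least 5 observed and expected reads, a Yates chi-square test. Recovery was tested on simulated data with positive log2. In 42615 of 42615 regions, the wild-type file and the series table gave equal wild-type reads. That check leaves out regions below 0 in the series table, whose deposited -log10 p is 0. They include 31 Map1b coding and 3 3′ UTR regions, whose knockout-labelled reads came from the wild-type file's reads and the deposited ratio. Of Map1b clusters, 53 of 59 knockout-labelled and 56 of 56 wild-type ones gave reads, and the 6 others, below input, did not. In all, 46441 regions of the series table had reads. Library totals are not in the files, so depth is given as ratios.

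Regions were annotated by their midpoint (GENCODE vM21), with coding sequence before 3′ UTR, then 5′ UTR, other exons and introns. Paired clusters were each wild-type cluster with the knockout-labelled one it overlaps most. Sums may count reads of abutting regions more than once. Named are Map1b, the 5 genes nearest to it over the 4 medians, from each list 4 members or fewer, those with the most exonic regions, and Map1b regions with 20 or more reads or enriched, some by example; genes beside Map1b in a rank were chosen after their values were seen. A seed match in the 3′ UTR is counted but not reported here. Map1b, the lists and the tests were chosen with earlier results of these data known. Alternatives covered annotation order, limits, thinning of the wild-type input, centring, added counts, overlap, ranking, site definition and bins. Scripts ran in Python 3.11.15.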

Additional observations from a re-analysis of the deposited data

How the results depend on the processing

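Of 77 alternative values for 38 results, 54 stayed close and 23 moved. A change of sign was possible only for the log2 values among them, of which 0 changed sign. The rest are counts, reads and ranks, which have no sign. With stricter limits (-log10 p of 5, log2 of 4), 2 knockout-labelled and 2 wild-type peaks were enriched. These are 3.39% and 3.57%, beside 1.38% and 8.62% of all clusters. At 3 and 2, 14 and 19 were enriched (23.7% and 33.9%), beside 4.01% and 25.1% of all clusters. After thinning the input of wild type to the other ratio, 3 of the 8 wild-type peaks were enriched. At limits of 5 and 2 for the comparison of the IPs, 0 Map1b regions were higher and 0 lower, where over all regions 176 and 23 were. After subtracting 0.38, the median of 3123 well-read regions not in miRNA genes, the log2 was -1.20 in coding sequence and 0.10 in the 3′ UTR. Without regions of 100 or more wild-type input reads, chosen after seeing the data, the coding median was -0.92. Ranks were 1 in both IPs by recovered reads and by coding reads, and 2 in the knockout-labelled and 3 in the wild-type IP by reads on the series regions; coding reads and series regions were chosen after seeing the data. Within 50 bases, 11 of 14 knockout-labelled 3′ UTR clusters were shared. With clusters extended by 50 bases, 14 knockout-labelled and 6 wild-type coding clusters held a seed match. These are 31.8% and 17.6%, beside 42.6% and 43.4% of all coding clusters. With runs of 2 guanines, 7 knockout-labelled and 6 wild-type coding clusters held a predicted G-quadruplex. These are 15.9% and 17.6%, beside 10.4% and 7.67% of all coding clusters. Over all exonic regions, and not coding ones alone, the median log2 of the genes was 0.86 for microtubule and 1.12 for FMRP-bound genes. By log2 of summed reads on the same exonic regions it was 0.70 and 0.81. Over all protein-coding genes the 2 measures gave 2.19 and 1.80. The causes of these changes were not tested, beyond what looser or stricter limits do by construction. No paired analysis was possible because each genotype has 1 IP library.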
